A study of Mus musculus with 7 samples.

Results

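Wnt pathway genes were selected from the count table by gene symbol alone. They are the protein-coding genes for the Wnt ligands, the frizzled receptors and their co-receptors *Lrp5* and *Lrp6*, the secreted antagonists *Sfrp1* to *Sfrp5*, *Dkk1* to *Dkk4* and *Wif1*, the R-spondins with their receptors *Lgr4* to *Lgr6* and the ubiquitin ligases *Rnf43* and *Znrf3*, the intracellular components *Ctnnb1*, *Apc*, *Axin1*, *Axin2*, *Gsk3b*, *Dvl1* to *Dvl3* and *Nkd1*, and the TCF/LEF transcription factors. The selection held 62 of the 21173 protein-coding genes, or of the 38124 genes, of the table. By role, these were 19 ligands, 12 receptors and co-receptors, 9 secreted antagonists, 9 genes of the R-spondin axis, 9 intracellular components and 4 TCF/LEF factors.

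The RNA came from High RFP cells, those in the upper RFP fluorescence gate, sorted at E15.5 from mouse neocortex 48 hr after *in utero* electroporation at E13.5. All embryos were heterozygous for *Tis21*-CreERT2 and received tamoxifen on the day before and on the day of electroporation, so that controls carried the same Cre allele and drug. The control group (3 libraries, numbered 1, 2 and 4) received the control construct, and the other group (4 libraries, numbered 1 to 4) received a conditional Sox9 expression construct. Cre released nuclear RFP from either construct, and Sox9 as well from the second. The comparison addressed which mRNAs change when Sox9 is expressed in mouse basal progenitors (BPs). As a model it is limited by the *Tis21* promoter, which drives Cre in BP-genic apical radial glia and their BP progeny, by the selection of strong RFP fluorescence, and by the pooling of cortices from several embryos for each sort. *Sox9* itself (ENSMUSG00000000567) had counts of 362, 1026 and 668 in control, against 370, 435, 277 and 177 in the Sox9-labelled libraries. Its log2 fold change was -0.68 (standard error, SE, 0.25, adjusted p = 0.0493, edgeR quasi-likelihood test). It passed the threshold of 0.01 used here, as lower, in a fit without a filter on low counts (adjusted p = 7.71e-05) and without control replicate 1 (adjusted p = 0.00281). The mRNA of the gene on the construct was therefore not higher in the second group, which goes against its label. Counts per gene do not separate construct from endogenous transcripts. The group is called Sox9-labelled throughout, and every direction given below rests on that label. Other genes did differ between the groups, *Olig2* being called higher and *Eomes* lower in the Sox9-labelled libraries (values below, with the markers of cell types). Whether any label is wrong was not tested. Libraries held 4429704 to 12907778 counts, with the smallest total in Sox9 replicate 4.

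Wnt ligands are secreted lipid-modified glycoproteins. In the canonical pathway a Wnt bound to a frizzled receptor and Lrp5 or Lrp6 stops the destruction complex of Axin, Apc and Gsk3 from marking β-catenin (*Ctnnb1*) for degradation, and stabilized β-catenin then activates transcription with TCF/LEF factors. R-spondins, held by Lgr receptors, raise the number of frizzled receptors at the cell surface by removing the ubiquitin ligases Rnf43 and Znrf3. In the developing neocortex the cortical hem, at the medial edge, is a rich source of Wnt ligands, and canonical signalling is known to favour progenitor self-renewal early and neuronal differentiation later.

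Of the 62 genes, 44 had enough counts to be tested and 18 did not. A gene was called higher or lower at a Benjamini-Hochberg adjusted p under 0.01 from edgeR's quasi-likelihood test (two-sided), adjusted over all 16522 genes tested. The genes called higher in the Sox9-labelled libraries were 5, namely the TCF/LEF factor gene *Tcf7l2*, the ubiquitin ligase gene *Rnf43*, the R-spondin receptor gene *Lgr5* and the ligand genes *Wnt4* and *Wnt5a*. The genes called lower were 2, the secreted antagonist gene *Sfrp1* and the ubiquitin ligase gene *Znrf3*. Calls were thus made for 15.9% of the tested Wnt pathway genes, against 13.8% of the 14267 protein-coding genes tested in the same fit. In the higher direction the shares were 11.4% of Wnt pathway genes and 9.96% of all, and in the lower direction 4.55% and 3.88%. As a whole, Wnt pathway genes were called at nearly the same rate as other genes. The median log2 fold change of the 44 genes was 0.15, against -0.06 for all protein-coding genes tested, with 27 values above 0 and 17 below. In CPM, which are counts relative to the library's size as scaled by edgeR's TMM method, all 4 Sox9-labelled libraries lay above all 3 controls for 13 of the 44 genes and below them for 4. Over all protein-coding genes tested, such separation was found for 19.8% in the higher and 18.4% in the lower direction.

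**Figure D1:**
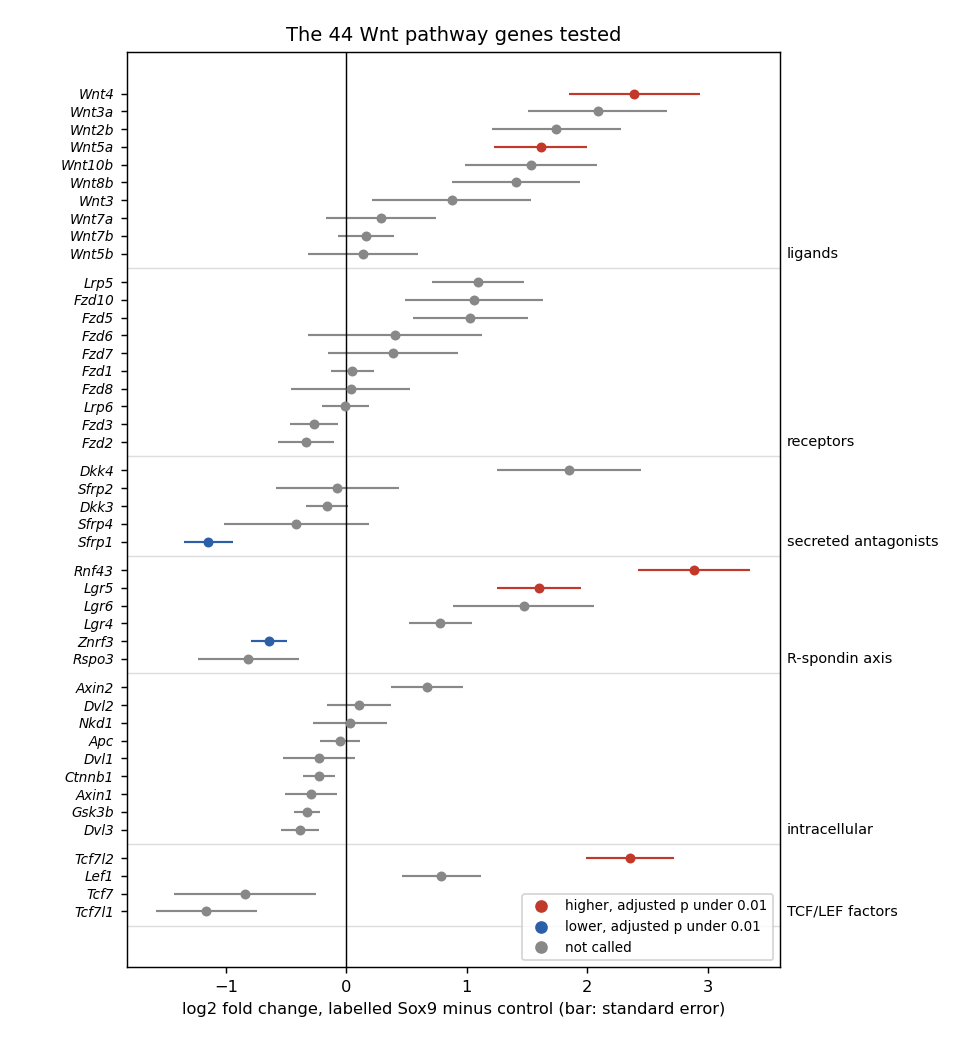
Log2 fold change (Sox9-labelled libraries minus control, x axis) of each of the 44 Wnt pathway genes tested, grouped by role. Points are fitted values, bars are standard errors, and colour marks genes called at an adjusted p under 0.01. The 10 ligand genes all lie above 0, while 6 of 9 intracellular components lie below it. Signs also follow level over all protein-coding genes tested. Of these, 88.1% lie above 0 at an average log2 CPM under 1, 71.8% between 1 and 3, and 25.4% above 3.

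Among the genes that passed the filter on low counts, fold changes were higher at low levels, for Wnt pathway genes as for all genes. Of the 13 Wnt pathway genes with an average log2 CPM under 1, 11 had values above 0, and the median was 1.03. None of the 13 was called by edgeR's quasi-likelihood test or by DESeq2, and 6 had an unadjusted p under 0.05 by the former. Among all 2076 protein-coding genes of that level the median was 1.53, and 21.6% were called higher and 0.145% lower. Low-level Wnt pathway genes thus had a lower median than all genes of their level. Of the 15 genes with an average log2 CPM between 1 and 3, 4 were called higher (*Rnf43*, *Lgr5*, *Wnt4* and *Wnt5a*), with a median of 0.67 against 0.60 for all 3500 genes of that level, of which 22.5% were called higher and 1.2% lower. Of the 16 genes above 3, *Tcf7l2* was called higher and *Sfrp1* and *Znrf3* lower, with a median of -0.25 against -0.20 for all 8691 genes, of which 2.15% were called higher and 5.85% lower. These 3 ranges of level were chosen after the values were seen. A gene passed the filter with enough counts in 3 libraries, the size of the smaller group, so that a low gene could pass through the group where it was higher, and the counts and medians of the low range describe only genes that passed. Cyclic loess, a normalization that takes out trends with level, gave the 44 Wnt pathway genes a median of -0.16, with 17 values above 0 and 27 below, and *Tcf7l2* as the sole call. Over all protein-coding genes, of which it called 3.98%, it left 316 called higher and 252 lower, against 1421 and 553 with TMM scaling.

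**Figure D2:**
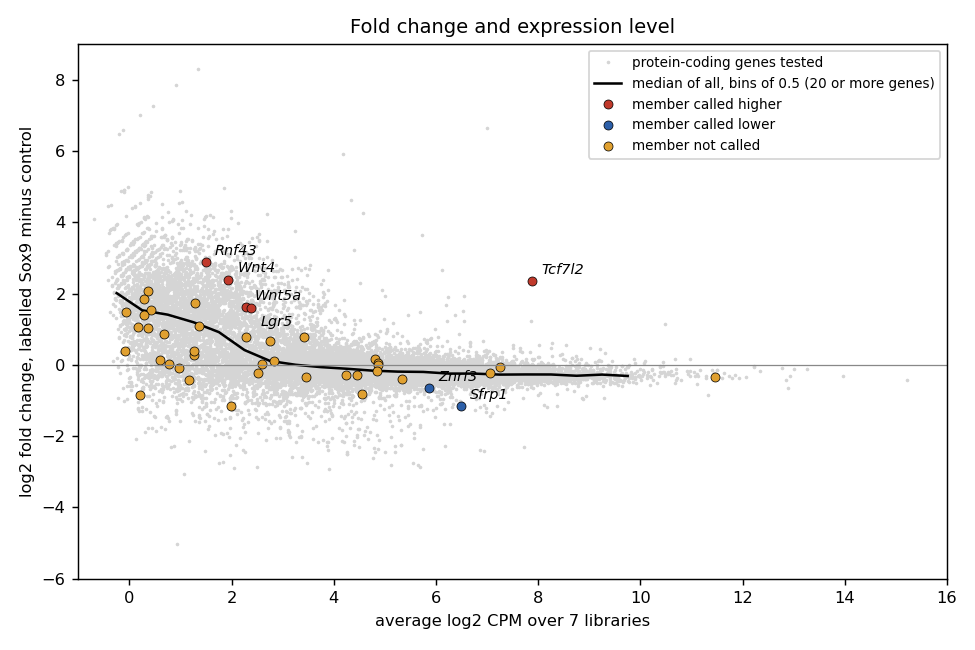
Log2 fold change (y axis) against average log2 CPM over the 7 libraries (x axis) for all protein-coding genes tested (grey) with the 44 Wnt pathway genes in colour. The black line, the median of all genes in bins of 0.5 that hold 20 or more genes, falls from above 1 at low levels to below 0 at high levels. *Rnf43*, *Wnt4*, *Lgr5* and *Wnt5a* lie above the line at low levels, and *Tcf7l2* lies far above it at a high level.

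Markers of cell types also differed between the groups. Neuron markers summed to 13499 to 16803 CPM in control and 12234 to 14389 in the Sox9-labelled libraries, with none of 10 called by edgeR's quasi-likelihood test (4 at an unadjusted p under 0.05, and 1 called by DESeq2). Radial glia markers summed to 615 to 1165 CPM in control and 299.8 to 441 in the Sox9-labelled libraries, and 5 of 9 tested were called lower. Intermediate progenitor markers went from 689.7 to 763 CPM in control to 441 to 572, with 3 of 8 called lower, among them *Eomes*, which encodes Tbr2 (log2 fold change -2.25, adjusted p = 4.87e-05). Markers of the choroid plexus and cortical hem summed to 6.26 to 9.15 CPM in control and 28.1 to 43.7 in the Sox9-labelled libraries, and 5 of 7 tested were called higher (*Ttr*, *Folr1*, *Msx1*, *Kcne2* and *Prlr*). Oligodendrocyte precursor markers went from 1.05 to 1.74 CPM in control to 9.95 to 28.2, with 4 of 5 tested called higher. Among them *Olig2*, which encodes a factor of the oligodendrocyte lineage, had counts of 0, 2 and 0 in control and 24, 6, 12 and 7 in the Sox9-labelled libraries (log2 fold change 4.44, adjusted p = 0.00371, edgeR quasi-likelihood test). *Nkx2-2* was not tested, at 0 in all controls and with at most 1 count in a Sox9-labelled library. Meningeal and mural markers (2 of 8 called higher, 9.65 to 12.2 CPM against 19.7 to 35.8), endothelial markers (2 of 9, 32.2 to 51.5 against 50.4 to 79.1) and Cajal-Retzius markers (1 of 5, 8.08 to 14.5 against 18.6 to 30.5) had higher sums in the Sox9-labelled libraries, although the endothelial sums overlapped between the groups. Microglia markers (1 of 10 called higher) and erythroid markers (1 of 6) had overlapping sums. The shares called higher in these 5 lists, from 10 to 25%, lie near or below the 21.6 and 22.5% of all genes in the 2 lower ranges of level, where most of these markers lie, so the counts alone set none of these 5 lists apart. Fewer cells of a type and less RNA per cell cannot be told apart in these bulk samples, and the part of these markers in the results below was not tested.

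Ligand genes were low as a group, and 9 of 19 were not tested. The 10 tested had log2 fold changes from 0.13 to 2.39 with a median of 1.47, and *Wnt4* and *Wnt5a* were called higher. All 10 values were above 0 with TMM scaling, with DESeq2's size factors and with DESeq2, but cyclic loess normalization placed 5 above and 5 below (*Wnt3*, *Wnt5b*, *Wnt7a*, *Wnt8b* and *Wnt10b*). All but *Wnt7b* had an average log2 CPM under 3. Of all protein-coding genes, 21.6% were called higher at a level under 1 and 22.5% between 1 and 3. Their medians were 1.53 and 0.60, with 88.1% and 71.8% of values above 0. Calls and signs thus do not set the ligand genes apart from genes of their level. Summed over the ligand genes, the level per length (CPM per kilobase of exon) was 7.48 to 9.75 in control and 11.8 to 17.7 in the Sox9-labelled libraries, without overlap between the groups.

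*Wnt4* (ENSMUSG00000036856, chromosome 4 of mm10 from 137277489 to 137299726, forward strand) encodes a ligand that acts through canonical or non-canonical signalling depending on the tissue. It had counts of 9, 12 and 13 in control, against 63, 45, 73 and 6 in the Sox9-labelled libraries. In CPM this was 0.860, 1.04 and 1.32 against 8.65, 4.25, 8.16 and 1.26. Sox9 replicate 4 lay among the controls, while the other 3 libraries of its group lay well above them. The mean rose from 1.08 ± 0.233 (SD, n = 3) to 5.58 ± 3.49 CPM (SD, n = 4), a log2 fold change of 2.39 (SE 0.54, adjusted p = 0.0054, edgeR quasi-likelihood test). The call was lost with cyclic loess normalization (log2 fold change 1.10, adjusted p = 0.192), and adjusted p was 0.0121 to 0.0202 when control replicate 1, 2 or 4 or Sox9 replicate 1 or 3 was left out.

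*Wnt5a* (ENSMUSG00000021994, chromosome 14 from 28504750 to 28527448, forward strand) encodes the prototype of the non-canonical ligands, which steer planar cell polarity and cell movement. The control libraries had 17, 22 and 29 counts and the Sox9-labelled libraries had 48, 100, 59 and 16. Scaled to CPM these were 1.62, 1.91 and 2.95 against 6.59, 9.45, 6.60 and 3.36. All 4 Sox9-labelled libraries lay above all controls, replicate 4 by a small margin. The mean went from 2.16 ± 0.697 (SD, n = 3) to 6.50 ± 2.49 CPM (SD, n = 4), with a log2 fold change of 1.61 (SE 0.39, adjusted p = 0.00735, edgeR quasi-likelihood test). Adjusted p was 0.113 with cyclic loess normalization and 0.0148 to 0.0272 without control replicate 1 or 2 or without Sox9 replicate 1, 2 or 3, and cyclic loess gave a log2 fold change of 0.96. The exons of *Wnt5a* overlap those of the antisense gene *Gm2670* (6 counts over the controls and 21 over the Sox9-labelled libraries), and reads of both strands cannot be told apart unless counting used strand.

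*Wnt7b* (ENSMUSG00000022382), a ligand made by cortical neurons that is known for its role in brain vessel growth, was the most abundant ligand gene per length, at 5.71 CPM per kilobase over the 7 libraries. Its CPM were 36.03, 25.8 and 16.4 in control and 27.2, 25.2, 28.2 and 36.9 in the Sox9-labelled libraries. The groups overlapped, with a log2 fold change of 0.16 (SE 0.23, adjusted p = 0.626) that became -0.06 without control replicate 4. *Wnt7b* made up 44.7 to 75.5% of the ligand sum per length in control and 31.4 to 58.7% in the Sox9-labelled libraries, ranges that overlap. The exons of *Wnt7b* overlap the antisense gene *AU022754*, with 40 and 77 counts summed over the groups.

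Among the other ligand genes, *Wnt3a* (log2 fold change 2.09, adjusted p = 0.0146), *Wnt2b* (1.74, adjusted p = 0.0237) and *Wnt8b* (1.41, adjusted p = 0.0555) encode ligands known from the cortical hem and the adjoining medial wall. All 3 had every Sox9-labelled library above every control in CPM, from means of 0.388, 1.006 and 0.533 to 1.63, 3.38 and 1.44 CPM, without passing the threshold. With cyclic loess normalization their log2 fold changes were 0.23, 0.73 and -0.16. *Wnt10b* had a log2 fold change of 1.53 (adjusted p = 0.0447), with overlapping groups, and of -0.25 with cyclic loess normalization. *Wnt3*, *Wnt7a* and *Wnt5b* had values of 0.88, 0.29 and 0.13 (adjusted p from 0.327 to 0.847), also with overlap. These 7 ligand genes were outside the rule for naming genes and are given to complete the family.

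Of the 9 ligand genes that were not tested, *Wnt8a* (chromosome 18) stood apart. It had 0 counts in each control library and 27, 9, 11 and 1 counts in the Sox9-labelled libraries. Against a floor of 3 counts per control library the mean of the Sox9-labelled libraries was at least 5.29-fold higher, and at least 2.69-fold higher without Sox9 replicate 1. Replicate 4, with 1 count, lay below that floor itself. The gene was called higher by DESeq2 (adjusted p = 0.000266), which was run without the filter on low counts. The remaining 8, *Wnt1*, *Wnt2*, *Wnt6*, *Wnt9a*, *Wnt9b*, *Wnt10a*, *Wnt11* and *Wnt16*, had at most 13 counts in any library. In the fit without a filter none of the 8 passed the threshold. *Wnt2* (1 count over the controls and 13 over the Sox9-labelled libraries, adjusted p = 0.0684 in that fit) and *Wnt10a* (4 and 17 counts, adjusted p = 0.139) had every Sox9-labelled library above every control in CPM.

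Receptor genes showed no call among the 10 tested with edgeR's quasi-likelihood test or with DESeq2, which called 13.8% and 19.8% of all protein-coding genes. *Fzd5* and *Lrp5* had an unadjusted p under 0.05 by edgeR's quasi-likelihood test. *Fzd4* and *Fzd9*, which were not tested, had at most 7 counts in any library. The median log2 fold change of the 10 was 0.22, with 7 values above 0 and 3 below, which became 3 above and 7 below with cyclic loess normalization. *Fzd1*, the most abundant frizzled gene per length at 6.93 CPM per kilobase, had 26.5, 34.0 and 24.9 CPM in control and 24.6, 29.5, 27.9 and 36.3 in the Sox9-labelled libraries. The groups overlapped (log2 fold change 0.05, SE 0.18, adjusted p = 0.859), and the sign of this small value differed between settings. *Fzd2*, next in level at 2.90 CPM per kilobase, had 10.3, 12.0 and 13.9 CPM against 10.03, 11.9, 7.94 and 8.18, also with overlap (log2 fold change -0.34, adjusted p = 0.285). *Fzd1*, *Fzd2* and *Fzd3* together made up 90.1 to 91.0% of the frizzled sum per length in control and 78.9 to 88.7% in the Sox9-labelled libraries. The remaining frizzled genes thus held a larger share in every library of the second group. Of these, *Fzd5*, *Fzd6*, *Fzd7*, *Fzd8* and *Fzd10* had log2 fold changes below 0, from -1.05 to -0.40, with cyclic loess normalization.

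*Lrp5*, a co-receptor of canonical signalling, had 1.24, 1.30 and 1.83 CPM in control and 3.02, 3.12, 3.35 and 2.94 in the Sox9-labelled libraries. The groups did not overlap, and the log2 fold change of 1.09 (SE 0.38, adjusted p = 0.0409) did not pass the threshold and was 0.17 with cyclic loess normalization. Its paralog *Lrp6* was more abundant, at 2.10 against 0.247 CPM per kilobase, and had a log2 fold change of -0.01 (adjusted p = 0.977). *Fzd5*, a receptor best known from eye development, had 0.956, 0.608 and 0.509 CPM against 1.65, 1.32, 1.45 and 1.26, again without overlap. Its log2 fold change of 1.03 (SE 0.48, adjusted p = 0.111) became -0.44 with cyclic loess normalization. The other receptor genes lay between -0.27 (*Fzd3*) and 1.06 (*Fzd10*), with overlapping groups. Exons of *Fzd6* overlap the opposite-strand gene *Gm26704* (3 and 27 counts over the groups, against 19 and 26 for *Fzd6*).

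The antagonists were led by *Sfrp1* (ENSMUSG00000031548, chromosome 8 from 23411502 to 23449632, forward strand), which encodes a soluble protein with a frizzled-like domain that binds Wnt ligands and is expressed in cortical progenitors. At 20.5 CPM per kilobase it was the most abundant secreted antagonist. It had counts of 940, 1761 and 1470 in control, against 414, 798, 555 and 193 in the Sox9-labelled libraries. In CPM these were 89.8, 153 and 150 against 56.9, 75.4, 62.04 and 40.5. Every Sox9-labelled library was below the lowest control. The mean fell from 131 ± 35.5 (SD, n = 3) to 58.7 ± 14.4 CPM (SD, n = 4), a log2 fold change of -1.15 (SE 0.20, adjusted p = 0.00138, edgeR quasi-likelihood test). Among the 2287 protein-coding genes with at least its average CPM, 12 had a log2 fold change as low as or lower than that of *Sfrp1*, itself included. Radial glia markers, with a median log2 fold change of -1.19 over the 9 tested, were lower in the same libraries. Cyclic loess normalization was the sole setting to end the call (log2 fold change -0.91, adjusted p = 0.0175).

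*Dkk3*, a divergent member of the Dickkopf family, followed in level at 8.52 CPM per kilobase. It had 31.4, 32.8 and 27.3 CPM in control and 22.7, 33.5, 29.3 and 23.3 in the Sox9-labelled libraries (log2 fold change -0.16, adjusted p = 0.518). *Dkk4*, an inhibitor that binds Lrp5 and Lrp6, had 0.287, 0.174 and 0.814 CPM against 0.961, 1.42, 2.24 and 1.47. The groups did not overlap, but the log2 fold change of 1.85 (SE 0.60, adjusted p = 0.0295) missed the threshold. It was 0.06 with cyclic loess normalization and 2.69 without control replicate 4, and missed the threshold in both. *Sfrp2* and *Sfrp4* had log2 fold changes of -0.08 and -0.42, with overlapping groups. The exons of *Sfrp2*, which had 58 counts over the controls and 54 over the Sox9-labelled libraries, overlap the antisense gene *Gm26771*, with 5 and 49 counts. *Dkk1*, *Dkk2*, *Sfrp5* and *Wif1* were not tested, with at most 9 counts in any library. Of these, *Dkk1* (3 counts over the controls and 21 over the Sox9-labelled libraries) had every Sox9-labelled library above every control in CPM, with an adjusted p of 0.0479 in the fit without a filter. *Sfrp1* and *Dkk3* made up 94.4 to 95.7% of the antagonist sum per length in control and 81.7 to 89.4% in the Sox9-labelled libraries, and the sum itself went from 31.2 to 47.0 in control to 19.8 to 30.7, without overlap. Both follow in large part from the values of *Sfrp1* and are no separate test.

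The R-spondin axis held genes called in either direction. *Rnf43* and *Znrf3* encode related membrane ubiquitin ligases that remove frizzled receptors from the cell surface, and both are known transcriptional targets of β-catenin. Here *Rnf43* was called higher and *Znrf3* lower.

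*Rnf43* (ENSMUSG00000034177, chromosome 11 from 87662722 to 87735539, forward strand) had counts of 6, 4 and 8 in control, against 38, 50, 41 and 12 in the Sox9-labelled libraries. In CPM it went from 0.573, 0.348 and 0.814 to 5.22, 4.72, 4.58 and 2.52. All 4 Sox9-labelled libraries were above all controls, replicate 4 being the lowest of them. The mean rose 7.37-fold, from 0.578 ± 0.233 (SD, n = 3) to 4.26 ± 1.19 CPM (SD, n = 4), with a log2 fold change of 2.89 (SE 0.47, adjusted p = 0.000814, edgeR quasi-likelihood test). This was the largest log2 fold change among the 44 genes. Of the 11259 protein-coding genes with at least its average CPM, 74 had as large a value or a larger one, itself included. Adjusted p was 0.0190 with cyclic loess normalization, where the log2 fold change was 1.52.

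*Znrf3* (ENSMUSG00000041961, chromosome 11 from 5276324 to 5444847, reverse strand) had 586, 998 and 754 counts against 328, 499, 449 and 213. Its CPM were 56.0, 86.7 and 76.7 in control and 45.1, 47.2, 50.2 and 44.7 in the Sox9-labelled libraries. The groups did not overlap, and the Sox9-labelled libraries were close together. The mean fell from 73.1 ± 15.7 (SD, n = 3) to 46.8 ± 2.53 CPM (SD, n = 4), with a log2 fold change of -0.64 (SE 0.15, adjusted p = 0.0067). The call was kept in 6 of the 16 other settings, the fewest among the 7 called genes. Adjusted p was 0.119 with cyclic loess normalization, 0.0428 with at least 10 counts required in every library, and 0.0140 to 0.0513 when any library other than control replicate 1 was left out.

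*Znrf3* stayed the more abundant gene of the pair in every library. Per length, *Rnf43* made up 1.22, 0.480 and 1.26% of the sum of both in control and 12.2, 10.8, 9.90 and 6.35% in the Sox9-labelled libraries. Its share was larger in every Sox9-labelled library than in any control. This share follows from the opposite calls of both genes and is no separate test.

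**Figure D3:**
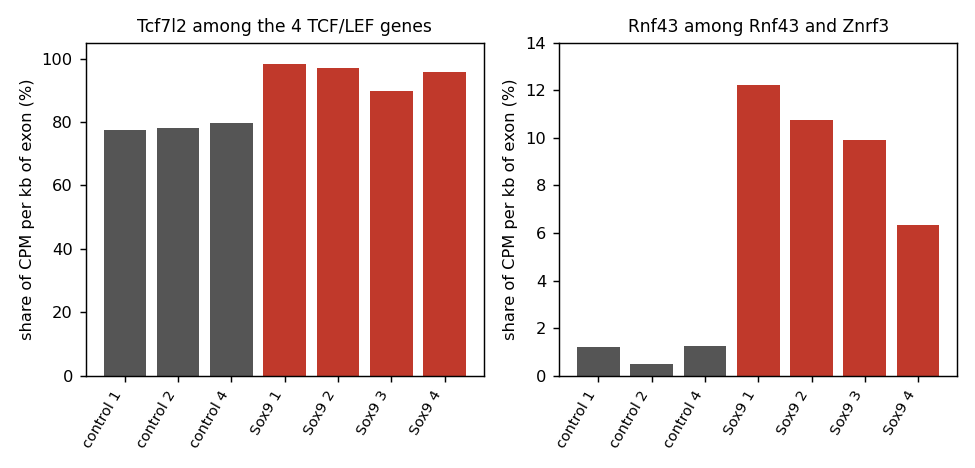
Share of *Tcf7l2* in the summed level per kilobase of exon of the 4 TCF/LEF genes (left) and share of *Rnf43* in that of *Rnf43* and *Znrf3* (right), in percent, with 1 bar per library (grey, control; red, labelled Sox9). *Tcf7l2* lies between 77.6 and 79.6% in control and between 89.8 and 98.2% in the Sox9-labelled libraries, and *Rnf43* at or below 1.26% in control and at or above 6.35% in the Sox9-labelled libraries.

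*Lgr5* (ENSMUSG00000020140, chromosome 10 from 115450311 to 115587780, reverse strand), an R-spondin receptor best known as a stem cell marker of the intestine, had counts of 31, 30 and 15 in control, against 37, 71, 83 and 37 in the Sox9-labelled libraries. In CPM these were 2.96, 2.61 and 1.53 against 5.08, 6.71, 9.28 and 7.76, with every Sox9-labelled library above every control. The mean went from 2.37 ± 0.748 (SD, n = 3) to 7.21 ± 1.77 CPM (SD, n = 4), a log2 fold change of 1.60 (SE 0.35, adjusted p = 0.00442, edgeR quasi-likelihood test). Adjusted p was 0.0453 with cyclic loess normalization and 0.0113 to 0.0168 without control replicate 2 or 4 or Sox9 replicate 3. The related receptor genes *Lgr4* and *Lgr6* had log2 fold changes of 0.78 (adjusted p = 0.0348) and 1.47 (adjusted p = 0.0654), each without overlap between the groups, and of 0.73 and -0.42 with cyclic loess normalization. *Lgr4* was the most abundant of the 3 per length, at 1.81 CPM per kilobase, and *Lgr6* was the lowest at 0.117.

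*Rspo3*, the R-spondin gene that was tested, encodes a ligand of these receptors that is known from the cortical hem and its surroundings. Its CPM were 55.1, 20.2 and 17.3 in control and 7.14, 18.6, 30.3 and 13.2 in the Sox9-labelled libraries. Values varied widely within each group, control replicate 1 being far above the other controls, and the log2 fold change of -0.81 (SE 0.42, adjusted p = 0.146) did not pass the threshold. It was -0.11 without control replicate 1, and the gene was called lower in the fit without a filter (log2 fold change -0.88, adjusted p = 0.000272). *Rspo1*, *Rspo2* and *Rspo4* had at most 9 counts in any library and were not tested.

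Of the 9 intracellular components, all were tested and none was called by edgeR's quasi-likelihood test, with 3 at an unadjusted p under 0.05 (*Axin2*, *Dvl3* and *Gsk3b*) and 1 called by DESeq2 (*Gsk3b*). Over all protein-coding genes the shares called were 13.8% and 19.8%, so that the lack of calls among 9 genes does not set this role apart. *Gsk3b*, which encodes the kinase that phosphorylates β-catenin in the destruction complex, was by far the most abundant Wnt pathway gene, at 285.8 CPM per kilobase over the 7 libraries. It had counts of 33045, 38566 and 29778 in control, against 17531, 30734, 22434 and 11022 in the Sox9-labelled libraries. Its mean CPM was 3179 ± 162 (SD, n = 3) for control, against 2533 ± 260.2 (SD, n = 4) for the Sox9-labelled libraries, without overlap between the groups. The log2 fold change of -0.33 (SE 0.11, adjusted p = 0.0342) missed the threshold. It was -0.05 with cyclic loess normalization (adjusted p = 0.700). In the fit without a filter it was -0.41 and passed the threshold (adjusted p = 0.0089). *Gsk3b* held 66.5 to 69.9% of the level per length summed over all Wnt pathway genes in control and 57.2 to 64.9% in the Sox9-labelled libraries.

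*Ctnnb1*, which encodes β-catenin, was next among these genes at 25.7 CPM per kilobase. Its CPM of 132, 143 and 163 in control overlapped those of 142, 125, 100 and 129 in the Sox9-labelled libraries. The log2 fold change was -0.23 (SE 0.13, adjusted p = 0.199), and 0.01 with cyclic loess normalization. *Dvl3*, a dishevelled protein that relays the signal from frizzled receptors, had 39.3, 52.1 and 46.4 CPM against 29.1, 36.9, 37.6 and 37.1, with every Sox9-labelled library below every control but no call (log2 fold change -0.39, SE 0.16, adjusted p = 0.0685). *Apc*, *Axin1*, *Dvl1* and *Dvl2* had log2 fold changes from -0.29 to 0.11, with overlapping groups. Exons of *Ctnnb1* overlap those of *Ulk4* (344 and 268 counts over the groups), exons of *Dvl1* those of *Tas1r3* (67 and 59) and exons of *Dvl2* those of *Acadvl* (2982 and 2343), each on the opposite strand. The log2 fold changes of all 9 intracellular components lay between -0.39 (*Dvl3*) and 0.67 (*Axin2*), a narrower span than that of the ligand or R-spondin axis genes.

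The TCF/LEF factors held the clearest difference. *Tcf7l2* (ENSMUSG00000024985, chromosome 19 from 55741820 to 55933654, forward strand) encodes a TCF/LEF factor, also called Tcf4, that is known from the thalamus and from the oligodendrocyte lineage. It had counts of 464, 1016 and 778 in control, against 3991, 4827, 1221 and 1448 in the Sox9-labelled libraries. In CPM these were 44.3, 88.3 and 79.1 against 548, 456, 136 and 304. Every Sox9-labelled library lay above every control, and replicate 3 was the lowest of them. The mean rose 5.12-fold, from 70.6 ± 23.2 (SD, n = 3) to 361 ± 181 CPM (SD, n = 4), with a log2 fold change of 2.35 (SE 0.36, adjusted p = 0.000615, edgeR quasi-likelihood test). Among the 745 protein-coding genes with at least its average CPM, *Tcf7l2* had the highest log2 fold change. The gene was called in each of the 16 other settings, with a log2 fold change between 2.09 and 2.65. Its level per length went from 8.04 to 41.2 CPM per kilobase.

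Sequence before the RefSeq start sites of called genes is shown for those in the RefSeq promoter table of build GRCm38.p6, which held windows for 42 of the 62 genes and for 3 of the 7 called genes, *Tcf7l2*, *Rnf43* and *Wnt4*. Each sequence gives the 250 bases before a start site on the forward strand, 5′ to 3′. Capitals mark matches to the core motif of SOX factors, ACAATG, or to a short core of TCF/LEF factors, CTTTGT, searched on both strands. *Tcf7l2* has a window at chr19:55741560-55741809, before its upstream RefSeq start, and another at chr19:55895071-55895320, before a downstream start inside the gene. The windows of *Rnf43* are chr11:87662837-87663086 and chr11:87699647-87699896, and that of *Wnt4* is chr4:137277385-137277634. RefSeq starts differ from the GENCODE gene bounds given above, so that both windows of *Rnf43* and the downstream one of *Tcf7l2* lie within the GENCODE gene, and the window of *Wnt4* runs into it.
Tcf7l2, upstream start: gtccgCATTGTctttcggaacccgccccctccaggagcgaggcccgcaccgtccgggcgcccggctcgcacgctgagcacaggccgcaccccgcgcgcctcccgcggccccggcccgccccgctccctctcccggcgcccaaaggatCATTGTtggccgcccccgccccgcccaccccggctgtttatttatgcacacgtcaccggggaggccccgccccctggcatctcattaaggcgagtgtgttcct
Tcf7l2, downstream start: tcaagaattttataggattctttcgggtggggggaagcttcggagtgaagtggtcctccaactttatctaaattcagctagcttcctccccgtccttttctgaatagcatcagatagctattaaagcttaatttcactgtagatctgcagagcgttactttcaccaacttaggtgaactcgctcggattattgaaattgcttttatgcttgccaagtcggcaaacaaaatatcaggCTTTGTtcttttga
Rnf43, upstream start: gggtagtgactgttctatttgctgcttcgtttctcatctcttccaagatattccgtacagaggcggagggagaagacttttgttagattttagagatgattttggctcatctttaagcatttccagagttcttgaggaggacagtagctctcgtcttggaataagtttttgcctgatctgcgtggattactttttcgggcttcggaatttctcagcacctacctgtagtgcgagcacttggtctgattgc
Rnf43, downstream start: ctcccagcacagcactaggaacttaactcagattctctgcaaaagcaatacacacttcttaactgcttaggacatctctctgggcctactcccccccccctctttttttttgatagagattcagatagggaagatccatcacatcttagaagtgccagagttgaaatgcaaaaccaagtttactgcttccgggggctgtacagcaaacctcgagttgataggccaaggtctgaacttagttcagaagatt
Wnt4: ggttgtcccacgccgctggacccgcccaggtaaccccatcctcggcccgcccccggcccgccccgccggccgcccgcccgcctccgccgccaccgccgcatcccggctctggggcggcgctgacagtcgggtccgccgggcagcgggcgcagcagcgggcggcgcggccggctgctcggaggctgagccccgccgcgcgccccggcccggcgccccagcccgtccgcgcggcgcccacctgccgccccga

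The upstream window of *Tcf7l2* held 2 matches to the SOX core, both on the reverse strand (read as CATTGT), with their first bases 245 and 103 bases before the start. The downstream window held 1 match to the short TCF/LEF core, 14 bases before the start, and the windows of *Rnf43* and *Wnt4* held no match. A longer TCF/LEF core, CTTTGAT, was searched too and occurred in none of these 5 windows. None of the 3 motifs contains another. Over all 32851 windows of the table, 10.7% held the SOX core, 16.5% the short TCF/LEF core and 3.21% the longer one. Over the 52 windows of Wnt pathway genes the shares were 9.62%, 15.4% and 3.85%, close to those of all windows. A match is a stretch of letters and does not show binding.

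*Tcf7l2* dominated its family in both groups. Per length it made up 77.6, 78.1 and 79.6% of the 4 TCF/LEF genes in control, against 98.2, 96.9, 89.8 and 95.9% in the Sox9-labelled libraries. The family sum went from 6.51 to 12.9 CPM per kilobase in control to 17.3 to 63.6, without overlap. Share and sum both follow largely from the values of *Tcf7l2* and are no separate test. *Tcf7l1*, a factor that mostly represses targets, had 2.39, 7.65 and 6.002 CPM against 1.65, 2.17, 3.35 and 2.31. Control replicate 1 lay within the other group, and the log2 fold change of -1.16 (SE 0.42, adjusted p = 0.0441) missed the threshold, which it passed in the fit without a filter (adjusted p = 0.00873). The exons of *Tcf7l1* overlap the antisense gene *Gm15401*, with 10 counts over the controls and 165 over the Sox9-labelled libraries. *Tcf7* was low, with at most 17 counts in any library and a log2 fold change of -0.85 (adjusted p = 0.288).

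Transcriptional feedback targets, genes that β-catenin and TCF/LEF factors are known to induce, were called in either direction. Of *Axin2*, *Lef1*, *Nkd1*, *Rnf43* and *Znrf3*, 1 was called higher, 1 was called lower and 3 were not called, where 13.8% of all protein-coding genes tested were called. The log2 fold changes were above 0 for 4 of the 5, with a median of 0.67, against -0.06 for all genes. However, *Axin2*, *Lef1*, *Nkd1* and *Rnf43* had an average log2 CPM between 1 and 3. All protein-coding genes of that level had a median of 0.60, with 71.8% of values above 0. The signs and the median of the feedback targets thus lie close to those of genes of that level. *Axin2*, a scaffold of the destruction complex and the most widely used readout of canonical signalling, had 3.44, 5.13 and 6.20 CPM in control and 9.75, 6.33, 6.71 and 8.81 in the Sox9-labelled libraries. Every Sox9-labelled library lay above every control, the lowest by a small margin, and the log2 fold change of 0.67 (SE 0.30, adjusted p = 0.0975) did not pass the threshold. *Lef1*, itself a TCF/LEF factor gene, had 3.63, 2.78 and 3.46 CPM against 5.36, 6.24, 7.27 and 3.57, with Sox9 replicate 4 among the controls (log2 fold change 0.79, SE 0.33, adjusted p = 0.0789, and 0.28 with cyclic loess normalization). *Nkd1*, an inhibitor that binds dishevelled, had 6.50, 6.78 and 4.07 CPM against 7.14, 4.16, 5.48 and 7.13. Its log2 fold change of 0.03 (SE 0.31, adjusted p = 0.955) took either sign depending on the setting.

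**Figure D4:**
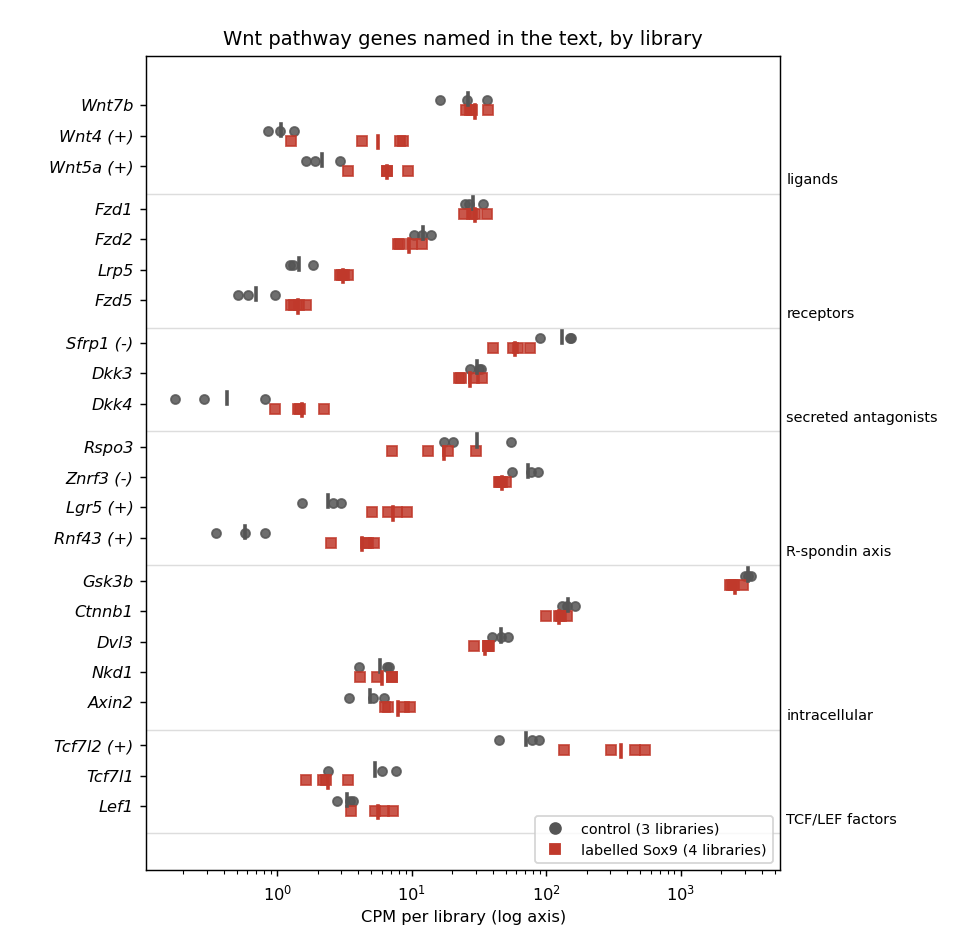
CPM per library (x axis, log scale) of the 22 Wnt pathway genes for which values in every library are given, ordered by role. Circles are the 3 control libraries, squares the 4 Sox9-labelled libraries, and short vertical lines group means. A plus or minus sign marks genes called higher or lower. *Tcf7l2*, *Rnf43*, *Lgr5* and *Wnt5a* have all squares to the right of all circles, *Sfrp1* and *Znrf3* all squares to the left, and *Wnt4* 1 square among the circles.

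Other genes of the pathway, outside the selection by symbol, were taken from a list of 68 regulators, planar polarity genes and known targets, of which 64 were tested. Of these, 5 were called higher and 1 lower, 9.38% in all against the 13.8% of all protein-coding genes, and 32 of 64 log2 fold changes were above 0, with a median of -0.01. *Vangl1*, a core planar cell polarity gene, had counts of 12, 2 and 3 in control, against 29, 30, 47 and 19 in the Sox9-labelled libraries (log2 fold change 2.87, SE 0.56, adjusted p = 0.00242, edgeR quasi-likelihood test). *Prickle2*, of the same pathway, had 64, 43 and 25 counts against 111, 77, 96 and 52 (log2 fold change 1.41, adjusted p = 0.00721). In CPM both genes were higher in every Sox9-labelled library than in any control. The log2 fold change of *Vangl1* was 3.99 without control replicate 1, and 1.62 with cyclic loess normalization, which ended the call (adjusted p = 0.0301). Other planar polarity genes of the list were not called. *Vangl2*, more abundant than *Vangl1* (7.76 against 0.353 CPM per kilobase), had a log2 fold change of 0.18. *Celsr1*, *Celsr2*, *Celsr3* and *Prickle1* had values of -0.23, -0.20, -0.11 and 0.63.

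*Invs*, which encodes inversin, a protein that is known to turn dishevelled from canonical towards planar polarity signalling, had a log2 fold change of 1.21 (adjusted p = 0.00291), and *Nkd2*, a dishevelled-binding inhibitor, of 1.79 (adjusted p = 0.0067). *Cd44*, a hyaluronan receptor and known β-catenin target, had 1.72 (adjusted p = 0.0053). Mean CPM went from 7.26 ± 1.93 to 16.7 ± 2.84 for *Invs*, from 4.58 ± 3.56 to 15.9 ± 4.44 for *Nkd2* and from 2.44 ± 1.33 to 8.02 ± 2.49 for *Cd44* (SD, n = 3 and n = 4). None of the 3 overlapped between the groups. Without control replicate 1 the log2 fold change of *Nkd2* was 2.59. Cyclic loess normalization ended the calls of *Nkd2*, *Cd44* and *Prickle2* (adjusted p from 0.0123 to 0.0279) but not that of *Invs*. Leaving out 1 library raised adjusted p above the threshold for *Invs* (control 2 or 4 or Sox9 3, 0.01002 to 0.0132), for *Cd44* (control 1 or 2 or Sox9 3, 0.0194 to 0.0234), for *Nkd2* (control 2 or 4 or Sox9 1, 3 or 4, 0.0120 to 0.0237) and for *Prickle2* (the same 5 libraries, 0.0123 to 0.0251).

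*Sp8*, a zinc-finger factor gene of the anterior cortex and a known Wnt target in other tissues, was the gene called lower. It had counts of 239, 415 and 352 in control, against 87, 158, 65 and 70 in the Sox9-labelled libraries. In CPM every Sox9-labelled library was below every control, and the mean fell from 31.6 ± 7.56 (SD, n = 3) to 12.2 ± 3.56 (SD, n = 4), a log2 fold change of -1.38 (SE 0.25, adjusted p = 0.00149, edgeR quasi-likelihood test). The call held in each of the 16 other settings. *Cby1*, *Tspan12* and *Csnk1d* were the most abundant of the listed genes per length (64.4, 61.4 and 31.0 CPM per kilobase). They encode a β-catenin antagonist, a co-receptor of norrin signalling and a casein kinase, and their log2 fold changes were -0.24, -0.33 and -0.26, none of them called. *Kremen2*, *Notum*, *Sost* and *Sp5* were not tested.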

How the data were processed

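The authors performed RNA-Seq of 7 libraries from sorted High RFP cells, 3 control and 4 labelled Sox9, grouped by their titles. The authors trimmed adapters, aligned reads to mm10 with STAR (2.5.2b per the submitters' processing notes, with bcl2fastq 2.17.1.14), and deposited raw counts per Ensembl gene. The program that counted reads, and whether it used strand or counted reads in introns, are not given in the sources used here. The authors also deposited FPKM values. In 6894 genes (1000 counts or more in all, and FPKM not below 0.05 in any library), the length linking both lay within 2% of the whole gene span for 91.8% and of the exonic length for 1.80%, so FPKM were not used for levels. Reads were not tagged with molecular identifiers, and every column of these tables was used.

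Symbols, coordinates and exonic lengths came from GENCODE annotation of GRCm38 (mm10), which held 36345 of 38124 genes by identifier. The test was edgeR 4.0.16's (R 4.3.3; TMM, filterByExpr, two-sided quasi-likelihood test, no covariate), with limma 3.58.1 and DESeq2 1.42.0 for alternatives. Benjamini-Hochberg adjustment ran over 16522 genes, with calls made under 0.01. The study's methods name DESeq2, which is an alternative here. CPM are counts scaled by TMM library sizes, and the standard error is the absolute log2 fold change divided by the square root of F. Levels were compared between genes as CPM per kilobase of exon. If counts included reads in introns, such levels and shares would be too high for genes with long introns. One such gene is *Gsk3b*, with a span of 157084 bases and 9831 bases of exon. Whether this was so was not tested. Average CPM, a measure of the counts behind a gene, set the ranges of level and the genes beside which a fold change is ranked. Where all controls had 0 counts, the fold was set against 3 counts per library. Scripts were tested on simulated data. Summaries were made in Python 3.11.15.

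The Wnt pathway genes, the other lists and the naming rule were chosen with earlier results of these data known. Values in every library are given for each called gene, for the 2 genes per role with the highest level per length and the 2 with the smallest p, and for the feedback targets *Axin2*, *Lef1*, *Nkd1*, *Rnf43* and *Znrf3*. Of the other pathway genes, those called (up to 10) and the 3 with the highest level are named.

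Alternatives were an adjusted p under 0.05, DESeq2, its size factors in edgeR, cyclic loess with limma-trend, a fit with all genes, a minimum of 10 counts per library, protein-coding genes only, a replicate block by either numbering of the controls, and leaving out each library. DESeq2 gave no adjusted p for 16 Wnt pathway genes, all of them without an edgeR test.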

Additional observations from a re-analysis of the deposited data

Results flagged for a closer look

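*Dvl3* had a library that stood apart from the others of its group. Among the Sox9-labelled libraries, replicate 1 had 29.1 CPM and the other three lay between 36.9 and 37.6, so that its gap to the nearest was 0.916 of the range of the group, above Dixon's 95% critical value for 4 libraries. This was tested in the group of 4 for 32 named genes and for 12 shares and summed levels, and by chance such a test picks out about 5% of groups of this size.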

How the results depend on the processing

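The 7 calls held with DESeq2's size factors and with protein-coding genes only, and all but *Tcf7l2* were lost under at least 1 other setting. Genes called higher and lower were 11 and 4 at an adjusted p under 0.05, 1 and 0 with cyclic loess (limma-trend), 3 and 1 with at least 10 counts in every library, and 7 and 5 without a filter. Leaving out each library gave 2 to 5 higher and 1 to 2 lower, with *Rnf43*, *Sfrp1* and *Tcf7l2* called each time. The lowest number of higher calls, 2, came without control replicate 2 or Sox9 replicate 3. Replicate numbers did not pair the libraries: correlations of deviations between same-numbered libraries were -0.04, 0.12 and -0.0048, and the titles and descriptions number the controls differently. A replicate block by title number gave 1 higher and 1 lower (*Tcf7l2* and *Sfrp1*), and a block by description number 4 and 1, with the calls of *Lgr5* and *Znrf3* lost. The cause of these shifts was not tested. Other pathway genes called higher were 8 at 0.05, 1 with loess, 0 with the title block and 1 to 5 with a library left out; those called lower were 5 at 0.05, 2 with DESeq2 and 1 each time a library was left out. All protein-coding genes called higher and lower were 2647 and 1744 at 0.05, 1594 and 1392 with DESeq2, 316 and 252 with loess, 1936 and 1408 without a filter, 549 and 198 with at least 10 counts, 340 and 213 with the title block, 842 and 343 with the description block, and 677 to 1223 and 201 to 461 with a library left out. The median log2 fold change of Wnt pathway genes was 0.70 with DESeq2 and 0.68 without a filter (both over 62 genes, against 0.066 and 0.061 over the 44 genes of the edgeR fit), -0.16 with loess, and 0.095 to 0.447 with a library left out (0.447 without control replicate 2). DESeq2, which also tested low genes, moved the median of all protein-coding genes from -0.06 to 0.09. With loess, 16 of the 44 genes changed sign, none of them called. Among the genes with values given in every library, the sign changed for *Ctnnb1* to 0.0108 and *Fzd5* to -0.44 with loess; *Wnt7b* to -0.0625 without control replicate 4 (0.449 at most with a library left out); *Fzd1* to -0.0370 with DESeq2, -0.0408 without a filter, -0.0501 with the description block, and -0.0210 to 0.2033 with a library left out; and *Nkd1* to -0.0626 with DESeq2, -0.0017 with its size factors, -0.22 with loess, -0.0658 without a filter, -0.0535 with the description block, and -0.153 to 0.196 with a library left out. Genes with few counts, such as most ligand genes, limit what can be detected, and Sox9 replicate 4 has the least depth. The floor of 3 counts used for *Wnt8a* covers counting error only, since reads without molecular identifiers are not independent molecules.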
